A study of Mus musculus with 4 samples.

Results

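Intermediate filament genes encode the ropelike proteins that give cells and nuclei their mechanical strength. The 10 genes described here were taken by symbol from a table of 23359 rows: the mesenchymal filament vimentin (Vim), the simple epithelial keratins Krt7, Krt8, Krt18 and Krt19, the neural filaments nestin (Nes) and alpha-internexin (Ina), and the nuclear lamins Lmna, Lmnb1 and Lmnb2. All 10 symbols were found, each in 1 row. Keratins assemble only as pairs of an acidic type I chain (Krt18, Krt19) and a basic type II chain (Krt7, Krt8), whereas vimentin forms filaments of a single chain type. Lamins lie beneath the inner nuclear membrane, where A-type lamins (Lmna) stiffen the nucleus of differentiated cells and B-type lamins (Lmnb1, Lmnb2) are made by nearly all cells. Retinoic acid is known to raise several keratins in cultured mouse embryonal carcinoma cells and to act on keratin choice in epithelia, and histone deacetylase inhibitors change the transcription of many genes at once.

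RNA from cultured tumour-initiating stem-like cells, isolated from liver tumours of C57BL/6 mice, was sequenced after depletion of ribosomal RNA. One culture was treated with all-trans retinoic acid (ATRA, a ligand of the retinoic acid receptors) at 5 µg/ml for 16 hours, one with suberoylanilide hydroxamic acid (SAHA, an inhibitor of zinc-dependent histone deacetylases) at 0.5 µg/ml for 16 hours, one with both compounds at these doses for 16 hours, and one with vehicle, for which the labels give no time. All 4 cultures grew in serum, EGF and dexamethasone, a medium that itself contains a glucocorticoid. Each treatment had 1 library, so no value below has a replicate error, no test was possible, and neighbouring levels cannot be said to differ. Levels are FPKM, a fragment count scaled to transcript length and library size, so they can be set beside each other between genes of different length. A difference is the difference in log2(FPKM + 1) between 2 libraries, and a gene is said to pass the 2-fold mark when it reached 1 in size on this scale, which understates the difference of low genes. Folds are plain ratios of FPKM.

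Low genes allowed an estimate of depth: a transcript of 1 kilobase at 1 FPKM was covered by roughly 94.7 fragments in the ATRA library, 97.8 in SAHA, 102 in the combination and 98.4 in vehicle. The background is the 8616 genes whose average across libraries reached 1 FPKM. Of the 10 filament genes 7 did so, and Krt8, Krt19 and Nes lay below. Rescaling each library to its total without small RNAs and without the abundant row Gm20594 moved the median log2 difference from vehicle of all counted genes to -0.16 with ATRA, 0.13 with SAHA and -0.22 with both, whereas it was -0.00055, -0.12 and 0.04 as deposited. Hepatocyte markers were close to 0 in every library: the 10 listed genes summed to 0.162, 0.176, 0.198 and 0.139 FPKM with ATRA, SAHA, both and vehicle. The 14 epithelial markers summed to 2.93, 1.40, 1.0 and 1.6 FPKM, with E-cadherin (Cdh1) at 0.00439, 0.0159, 0.00818 and 0.0104 FPKM. Other markers of this list took other courses. Cldn3 was at 2.12, 0.401, 0.0871 and 1.10 FPKM and Cldn4 at 0.661, 0.138, 0.0676 and 0.304, each highest with ATRA and lowest with both. Tjp3 was at 0.0272, 0.294, 0.518 and 0.0123 FPKM, highest with both. The 14 mesenchymal markers summed to 90.01, 25.5, 28.0 and 89.2 FPKM, led by fibronectin (Fn1) at 27.8, 12.8, 12.4 and 18.9 FPKM. Macrophage and endothelial markers were low: the 6 macrophage markers in the table summed to at most 5.32 FPKM (with SAHA, mostly Cd68 at 5.20) and the 7 endothelial markers to at most 0.176 FPKM. The labels give liver tumours as the source, and the defining hepatocyte genes were at or near 0.

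The upstream sequences of Krt18, Krt8 and Krt7, of Krt13 from the keratin cluster around Krt19, and of Ina and Lmna, the 2 genes past the mark with a single compound, are shown first. Each run is the 250 bases before the annotated RefSeq start (GRCm38.p6), with capitals marking matches on either strand to AGGTCA (the core bound by retinoic acid receptors), TATAAA (the TATA box), CCAAT (the CCAAT box), GGGCGG (the GC box) or TGANTCA (AP-1). No match printed here overlaps another motif.
Krt18, chr15:102027966-102028215, plus strand: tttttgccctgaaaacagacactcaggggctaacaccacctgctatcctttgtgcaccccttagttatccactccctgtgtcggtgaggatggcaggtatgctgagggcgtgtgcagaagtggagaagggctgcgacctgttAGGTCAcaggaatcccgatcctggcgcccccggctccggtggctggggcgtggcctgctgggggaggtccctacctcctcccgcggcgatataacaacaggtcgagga
Krt8, chr15:102004343-102004592, minus strand: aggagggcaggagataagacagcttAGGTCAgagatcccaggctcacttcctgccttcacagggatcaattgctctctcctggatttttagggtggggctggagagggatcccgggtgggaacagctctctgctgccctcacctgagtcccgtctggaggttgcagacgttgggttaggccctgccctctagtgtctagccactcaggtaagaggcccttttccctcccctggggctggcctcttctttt
Krt7, chr15:101412153-101412402, plus strand: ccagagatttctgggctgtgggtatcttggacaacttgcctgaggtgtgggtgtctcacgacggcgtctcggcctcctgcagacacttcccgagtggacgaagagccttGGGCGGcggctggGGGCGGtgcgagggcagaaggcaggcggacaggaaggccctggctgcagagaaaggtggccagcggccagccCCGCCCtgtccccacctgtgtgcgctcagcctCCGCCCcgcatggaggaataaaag
Krt13, first of 2 annotated starts, chr11:100121567-100121816, minus strand: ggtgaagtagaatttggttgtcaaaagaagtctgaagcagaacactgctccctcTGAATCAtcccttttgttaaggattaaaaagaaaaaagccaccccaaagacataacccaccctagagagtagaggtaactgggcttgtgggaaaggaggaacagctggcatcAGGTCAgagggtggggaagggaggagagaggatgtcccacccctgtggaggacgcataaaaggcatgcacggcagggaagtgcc
Ina, chr19:47014431-47014680, plus strand: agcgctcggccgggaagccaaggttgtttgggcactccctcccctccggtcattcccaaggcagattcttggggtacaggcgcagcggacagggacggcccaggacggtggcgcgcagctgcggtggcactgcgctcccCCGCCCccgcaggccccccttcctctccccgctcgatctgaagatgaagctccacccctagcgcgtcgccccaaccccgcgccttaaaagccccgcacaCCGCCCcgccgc
Lmna, first of 2 annotated starts, chr3:88503353-88503602, minus strand: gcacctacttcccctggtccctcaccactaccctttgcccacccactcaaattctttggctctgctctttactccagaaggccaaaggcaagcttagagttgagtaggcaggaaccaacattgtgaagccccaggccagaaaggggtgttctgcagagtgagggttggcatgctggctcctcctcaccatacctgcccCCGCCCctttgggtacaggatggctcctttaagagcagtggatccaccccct
AGGTCA stood once in the Krt18 window, beginning 108 bases before the start, once in the Krt8 window at 225 bases and once in the first Krt13 window at 84 bases. The Krt7 window held 0 AGGTCA and 4 GGGCGG, and the second Krt13 window, not printed, held 0 AGGTCA, 2 TGANTCA and 1 CCAAT. Of all 32851 annotated windows of this length, 14.0% held AGGTCA. The first Krt13 window also held TGANTCA at 196 bases, a motif in 6.75% of windows. The Ina window held GGGCGG in 2 places and the Lmna window in 1, against 32.7% of windows with at least 1. The Vim window, not printed, held TATAAA at 32 bases and CCAAT in 2 places, motifs in 12.4% and 33.8% of windows. Of the 10 genes, 8 had an entry in the promoter table; Krt19 and Lmnb1 had none.

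**Figure D1:**
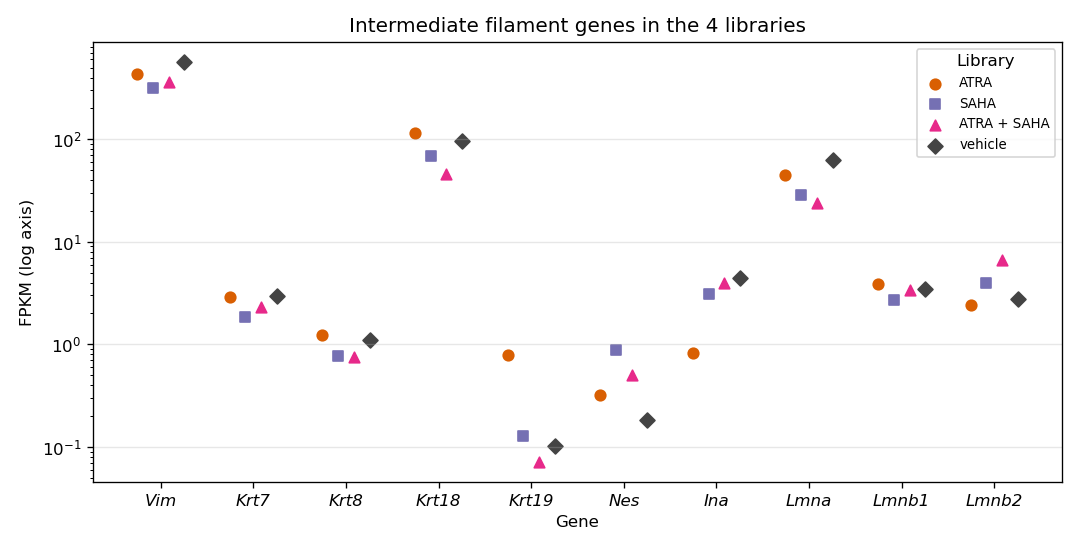
FPKM (log axis) of the 10 filament genes, with 1 point per library: ATRA, SAHA, ATRA plus SAHA and vehicle from left to right for each gene. Vim lies between 319 and 562 FPKM and Krt18 between 45.3 and 116 FPKM, while Krt8 stays between 0.747 and 1.23 FPKM; Krt19 stands out upward and Ina downward with ATRA.

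Vimentin was by far the most abundant of the filament genes and was lower with each treatment than with vehicle. Vim (chromosome 2, 13574310 to 13582826, mm10) was at 432 FPKM with ATRA, 319 with SAHA and 362 with both, against 562 with vehicle. As deposited, the vehicle library was the highest and the SAHA library the lowest. The log2 differences from vehicle were -0.38, -0.82 and -0.64, so none passed the 2-fold mark. After rescaling they were -0.60, -0.46 and -0.998, so all 3 stayed below 0, but the combination was then the lowest. Vim held 71.4%, 74.1%, 80.6% and 76.5% of the summed FPKM of the 10 genes with ATRA, SAHA, both and vehicle. In bulk RNA, fewer cells of a type and less RNA per cell cannot be told apart. Several mesenchymal markers were also lower with SAHA: Sparc (a matrix protein) was at 2.65 FPKM with SAHA and 2.68 with both against 33.4 with vehicle, and Prrx1 (a mesenchymal transcription factor) at 0.177 and 0.161 against 8.97. Twist1, another such factor, was at 0.701 and 1.30 FPKM against 7.62, and Acta2 (smooth muscle actin) at 7.14 and 8.86 against 15.9. Of 6 counted mesenchymal markers, 4 were lower past the mark with SAHA and 3 with both and 0 higher with either, where 16.0% and 12.6% of all counted genes were lower. Among the 8 that were too low to be counted, Tagln (transgelin) went the other way, at 0.653 FPKM with SAHA and 0.397 with both against 0.144 with vehicle, and Col1a1 was at 0.0416 and 0.0398 FPKM against 0.0207. Their part in the Vim levels was not tested. Vim stood at 319 FPKM or more in every library.

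The other type III filaments had their extremes in the same libraries as Vim. Desmin (Des, the muscle and stellate cell filament) was at 18.1, 15.2, 17.3 and 21.4 FPKM with ATRA, SAHA, both and vehicle. Peripherin (Prph, of peripheral neurons) was at 9.57, 5.97, 8.40 and 10.4 FPKM, and Gfap (of astrocytes) at 2.98, 2.52, 3.13 and 4.06 FPKM. In all 3 genes, as in Vim, the vehicle library was highest and the SAHA library lowest as deposited. Which library was lowest depends on scaling: rescaling multiplies SAHA by 1.28 and the combination by 0.777, which puts the combination lowest in these genes too. The ratio of Vim to Des was 23.8, 20.99, 20.9 and 26.2 with ATRA, SAHA, both and vehicle, and that of Vim to Gfap 145, 127, 116 and 139. No exact run of 25 or more bases was shared between the annotated Vim transcripts and those of Des, Prph or Gfap, and 0 of 2144 windows of 50 bases in the longest Vim transcript occurred in another gene's transcript. The 3 genes whose differences from vehicle were most like those of Vim, by Euclidean distance over the 3 differences among 2724 genes averaging 5 FPKM or more, were Lrig1 (distance 0.04), Oxct1 (0.07) and Ddx3x (0.08).

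The keratins were unequal in level and in response. Krt18 (chromosome 15, 102028215 to 102032026) was at 116 FPKM with ATRA, 69.1 with SAHA and 45.3 with both, against 95.3 with vehicle. ATRA gave the highest value and the combination the lowest. The log2 differences from vehicle were 0.28 with ATRA, -0.46 with SAHA and -1.06 with both, so Krt18 passed the mark downward with the combination alone. Against SAHA alone the combination differed by -0.60, and against ATRA alone by -1.34, which is 2.56-fold lower. The combination thus departed by -0.88 from the -0.18 that the single differences add up to. After rescaling, the differences from vehicle were 0.06 with ATRA, -0.10 with SAHA and -1.41 with both, and the departure was -1.37.

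Its usual type II partner was scarce. Krt8 (chromosome 15, 101996710 to 102004342), whose locus lies 23872 bases from that of Krt18, was at 1.23 FPKM with ATRA, 0.772 with SAHA and 0.747 with both, against 1.11 with vehicle. By the estimate of depth these values stood for about 229, 148, 149 and 214 fragments. Krt18 exceeded Krt8 by 94.0, 89.5, 60.7 and 85.7-fold with ATRA, SAHA, both and vehicle. Of the 50-base windows of the Krt8 transcript, 29.7% also occurred in transcripts of other genes, most of them in the pseudogene Krt8-ps (26.9%), so reads there could have been assigned to either; for Krt18 the share was 0.720%. Krt7 (chromosome 15, 101412402 to 101427806), the other type II chain among the 10, was at 2.88, 1.83, 2.32 and 2.99 FPKM, with no difference from vehicle beyond -0.50. Over all keratin rows in the table, type I chains summed to 125, 71.2, 46.9 and 96.9 FPKM and type II chains to 17.6, 7.68, 7.71 and 14.9 FPKM. Krt18 made up 92.5%, 97.1%, 96.7% and 98.3% of the type I sum.

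The only other keratin with more than 5 FPKM in any library was Krt80, a type II chain. Krt80 was at 7.41 FPKM with ATRA, 1.27 with SAHA and 0.784 with both, against 5.17 with vehicle, and its log2 differences were 0.45, -1.44 and -1.79. Krt80 had thus the same order of libraries as Krt18. Of the 2 counted type II keratins outside the 10 genes, Krt80 was lower past the mark with SAHA and with both, and Krt79 was not, at 1.12 and 1.28 FPKM against 1.69. The genes most like Krt18 in their 3 differences were Bnip3 (distance 0.12), Hnrnpm (0.20) and Hspb1 (0.26), the last encoding a small heat shock protein that binds keratin and other filaments.

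Krt19, a type I keratin of bile ducts and other simple epithelia, was higher with ATRA alone. Krt19 (chromosome 11, 100140810 to 100145919) was at 0.778 FPKM with ATRA, 0.127 with SAHA and 0.0710 with both, against 0.102 with vehicle. These values stood for about 116, 20, 11 and 16 fragments. The ATRA library was 7.62-fold above vehicle, and the combination was 10.96-fold below ATRA alone. On the log2(FPKM + 1) scale the ATRA difference was 0.69, short of the mark, whereas with a pseudocount of 0.1 FPKM it was 2.12. The other bile duct markers did not share 1 course. Sox9, singled out after its values were seen, was at 2.69 FPKM with ATRA, 0.910 with SAHA and 0.857 with both, against 1.19 with vehicle, and osteopontin (Spp1), the highest, at 566, 939 and 433 FPKM against 336. The other 6 of the list were below 0.2 FPKM in every library, and Epcam (0.00741 with ATRA against 0.0406 with vehicle) and Cftr (0.00575 against 0.0155) went against Krt19. Their part in the Krt19 levels was not tested.

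Krt19 did not stand alone on its chromosome. Type I keratin genes other than Krt18 lie in a cluster on chromosome 11, and the neighbours of Krt19 were higher with ATRA too, a group singled out after its values were seen. Krt13 (chromosome 11, 100117595 to 100121495), a keratin of internal stratified epithelia, was at 3.17 FPKM with ATRA, 0.146 with SAHA and 0.112 with both, against 0.265 with vehicle, or about 496, 24, 19 and 43 fragments. Krt15, which lies between Krt13 and Krt19 and marks basal epithelial cells, was at 1.12 FPKM with ATRA, 0.0569 with SAHA and 0.0338 with both, against 0.121 with vehicle. The ratio of ATRA to vehicle was 11.9 for Krt13 and 9.22 for Krt15. Beyond Krt9, which had a ratio of 1.33, it was 2.995 for Krt14, 8.26 for Krt16, 5.37 for Krt17 and 6.07 for Krt42. In the combination none of these genes reached 0.3 FPKM. Their ratios of combination to vehicle lay between 0.279 (Krt15) and 1.27 (Krt16), except for Krt9 at 2.03, with Krt19 at 0.696. The genes next to Krt42 had no ATRA ratio of this size: Eif1 was at 5.00 FPKM with ATRA against 5.45 with vehicle, Gast at 0.0836 against 0.0799 and Hap1 at 0.889 against 1.79 (2.01-fold lower). Jup went the same way by less, at 4.73 FPKM against 3.28 (1.44-fold higher), and was lowest with both at 2.67 FPKM.

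Across the whole type I cluster, the ATRA value was the highest of the 4 in 18 of 27 rows, against 24.0% of all 13517 genes with a mean above 0 and under 1 FPKM. It was at least 2-fold above vehicle in 18 of the 26 rows with vehicle above 0, against 12.0% of all 11485 such low genes. Many of these rows rest on few fragments, such as Krt28 with about 3 with ATRA and 1 with vehicle. Of the 9 rows with a mean of 0.1 FPKM or more, 9 were at least 2-fold above vehicle, against 5.18% of all 3781 genes between 0.1 and 1 FPKM. That mean includes the ATRA library, so a row can enter through its ATRA value, as Krt15, Krt16 and Krt42 did. Krt16 and Krt42 were each under 0.1 FPKM with SAHA, with both compounds and with vehicle. Krt15 was at 0.0569, 0.0338 and 0.121 FPKM in these libraries, which average under 0.1. The 9 of 9 is thus partly built in by the filter. As the cluster was singled out for these values, the counts are a description. Among 24 type II keratin rows on chromosome 15, the ATRA value was the highest in 10 and at least 2-fold above vehicle in 4. Among the 9 type I rows above 0.1 FPKM were Krt13, Krt15, Krt19, Krt14, Krt16, Krt17 and Krt42, whose sequences are related. The others were Krt10 and Krt20. Krt20 was highest with SAHA, not ATRA. Its levels were 0.131 FPKM with ATRA, 0.504 with SAHA and 0.247 with both, against 0.0485 with vehicle. Krt16 shared 37.6% of its 50-base windows with other genes, Krt14 14.4% and Krt17 3.99%, so the split between these 3 is uncertain. Krt13 and Krt19 shared 0 of 1605 and 0 of 1527 windows, and Krt15 0.666%. Only Krt13 passed the 2-fold mark on the log2 scale (1.72), and no type I keratin other than Krt18 had a mean of 1 FPKM.

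**Figure D2:**
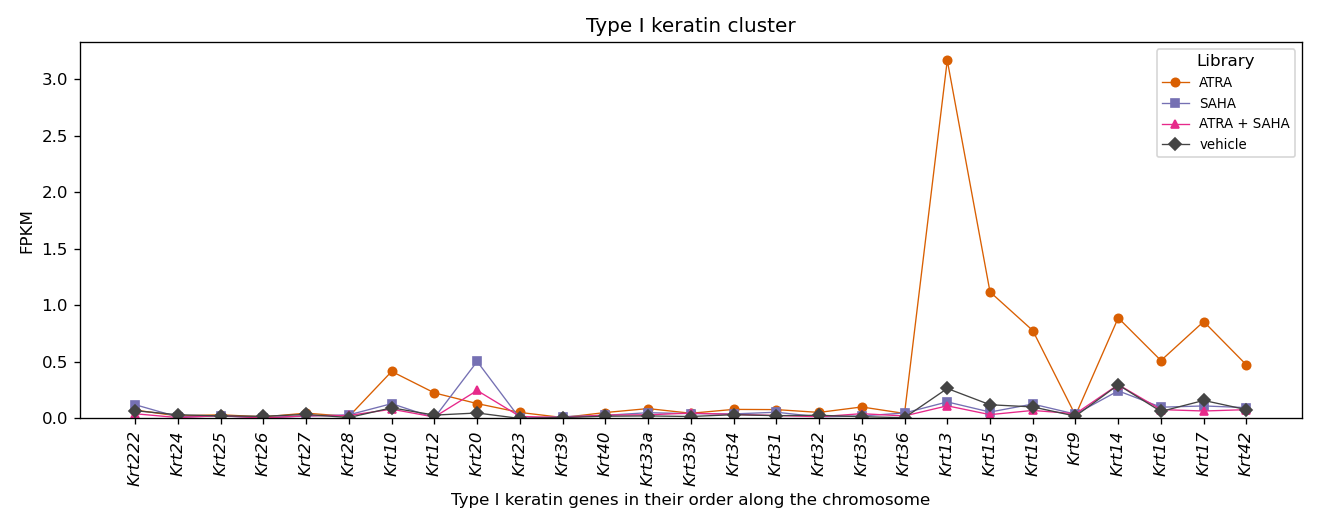
FPKM of the 27 type I keratin genes of the chromosome 11 cluster in their order along the chromosome, with 1 line per library. The ATRA line leaves the others at Krt13 (3.17 FPKM), Krt15 (1.12), Krt19 (0.778), Krt14 (0.889), Krt16 (0.512), Krt17 (0.857) and Krt42 (0.473), while the combination stays near SAHA and vehicle at these genes.

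The neural filaments were low and went separate ways. Nestin, the filament of neural progenitors and many regenerating tissues, was highest with SAHA. Nes (chromosome 3, 87971092 to 87980451) was at 0.323 FPKM with ATRA, 0.888 with SAHA and 0.497 with both, against 0.181 with vehicle. About 187, 532, 310 and 109 fragments lay behind these values, since the Nes transcript is 6126 bases long. The ratio to vehicle was 1.79, 4.91 and 2.75. The differences of 0.16, 0.68 and 0.34 on the log2(FPKM + 1) scale did not pass the mark, and with a pseudocount of 0.1 FPKM those of SAHA (1.82) and the combination (1.09) did. All 3 stayed above 0 under every scaling tried.

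Alpha-internexin showed the largest difference from vehicle of the 10 genes on the log2(FPKM + 1) scale, and with ATRA alone; the plain ratio of the low gene Krt19 was larger. Ina (chromosome 19, 46886830 to 47024346 in the table) was at 0.827 FPKM with ATRA, 3.12 with SAHA and 4.0 with both, against 4.41 with vehicle. The ATRA library stood apart below the other 3. The difference of ATRA from vehicle was -1.57, or 5.34-fold lower, and ranked 35 among the lower genes of 8616. Ina was the only one of the 7 counted filament genes past the mark in that comparison, with 1 lower and 0 higher, where 1.20% of counted genes were lower and 0.917% higher. With SAHA present, ATRA left Ina at 4.0 FPKM against 3.12 with SAHA alone, a difference of 0.28. The combination lay 1.85 above the -1.96 that the single differences add up to, the only departure of 1 or more among the 10 genes. The share of all counted genes with such a departure was not computed, so this count has no background. For Ina, the combination was 4.84-fold above ATRA alone.

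Nefm, the medium neurofilament chain with which Ina copolymerises in neurons, had the same order of libraries except at the top. Nefm was at 0.352 FPKM with ATRA, 1.03 with SAHA and 1.45 with both, against 1.40 with vehicle, a difference of ATRA from vehicle of -0.83 in log2(FPKM + 1). The ratio of Ina to Nefm was 2.35, 3.02, 2.75 and 3.16 with ATRA, SAHA, both and vehicle. The table gives Ina a locus merged with that of Nt5c2, and 12.8% of the 50-base windows of the Ina transcript occurred in other genes, among them Nt5c2. Nt5c2 itself was at 0.669, 1.14, 0.513 and 1.16 FPKM with ATRA, SAHA, both and vehicle, so it was low with ATRA, as Ina was, and low with the combination, where Ina was not. The part of this overlap in the Ina values was not tested. The strand setting of the counting is not stated in the sources used here, so reads of the overlapping stretch cannot be told apart. Of the neuronal markers, Tubb3 (a neuronal beta-tubulin) was the highest, at 203 FPKM with ATRA, 62.0 with SAHA and 121 with both, against 141 with vehicle.

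The lamins shifted against each other. Lmna (chromosome 3, 88481148 to 88503332), which encodes lamins A and C, was at 44.8 FPKM with ATRA, 28.9 with SAHA and 23.9 with both, against 62.5 with vehicle. Vehicle was highest and the combination lowest. The log2 differences were -0.47, -1.09 and -1.35, or 1.40-fold, 2.16-fold and 2.61-fold lower. With SAHA, Lmna was the only one of the 7 counted filament genes past the mark, with 1 lower and 0 higher, where 16.0% of counted genes were lower and 7.88% higher. That SAHA call was lost after centring (-0.97) and after rescaling (-0.74), while that of the combination held in both. The row holds both products of the gene, so lamins A and C are not separated. The Lmna window printed above, of 1 of 2 annotated starts, held no AGGTCA, and the other window held it once. The genes most like Lmna in their 3 differences were Ppp1r15b (distance 0.15), Acot10 (0.16) and Tapbp (0.21).

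The B-type lamins did not follow Lmna. Lmnb2 (chromosome 10, 80901362 to 80918245) was at 2.41 FPKM with ATRA, 3.99 with SAHA and 6.60 with both, against 2.75 with vehicle. The combination was the highest, 2.39-fold above vehicle, and its difference of 1.02 passed the mark by little; it was 0.98 after centring and 0.71 after rescaling. Lmnb1 (chromosome 18, 56707812 to 56753424) was at 3.89, 2.71 and 3.41 FPKM with ATRA, SAHA and both, against 3.43 with vehicle, with differences of 0.14, -0.26 and -0.01. The sign of the first and second of these turned under rescaling. With the combination, the 7 counted filament genes thus held 1 past the mark upward (Lmnb2) and 2 downward (Krt18 and Lmna), where 11.1% of counted genes were higher and 12.6% lower.

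Ratios within a library do not depend on how libraries are scaled. Lmna exceeded the sum of the B-type lamins 7.10-fold with ATRA, 4.31-fold with SAHA and 2.39-fold with both, against 10.1-fold with vehicle. Lmnb2 stood at 0.619 of Lmnb1 with ATRA, and at 1.47 and 1.93 times Lmnb1 with SAHA and with both, against 0.802 with vehicle. Lmnb2 was above Lmnb1 in both libraries with SAHA and below it in both without. Vim exceeded Krt8 and Krt18 together 3.68-fold, 4.56-fold and 7.85-fold with ATRA, SAHA and both, against 5.83-fold with vehicle. This ratio was thus below that of vehicle with either compound alone and above it with both.

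**Figure D3:**
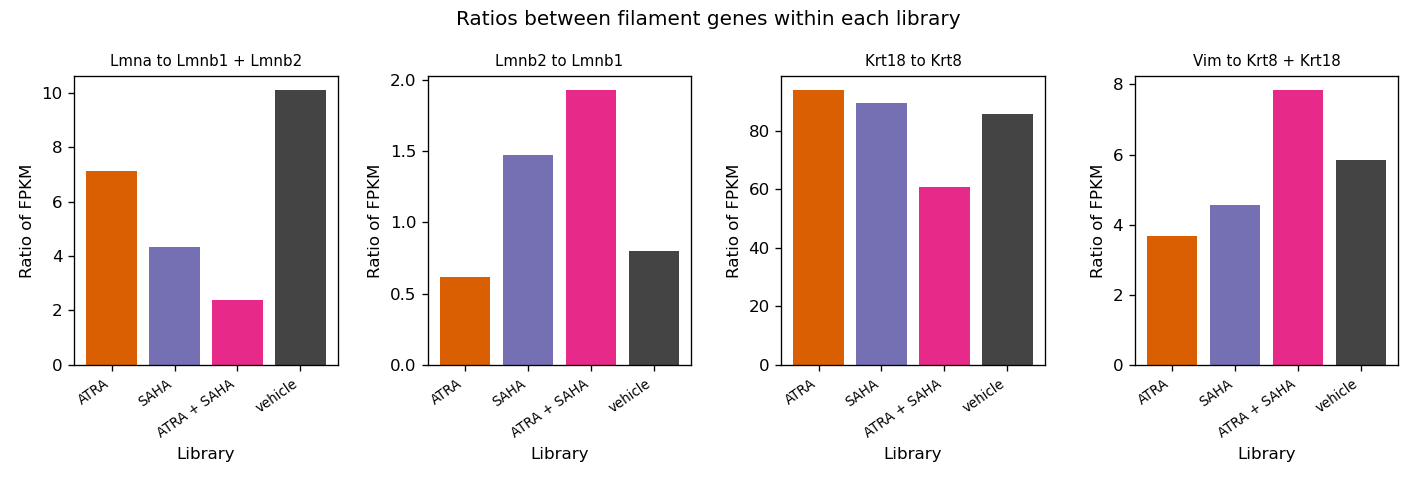
Ratios of FPKM between filament genes within each library, as bars for ATRA, SAHA, ATRA plus SAHA and vehicle. The ratio of Lmna to B-type lamins is 2.39 with both compounds against 10.1 with vehicle, and that of Lmnb2 to Lmnb1 is above 1 only in the SAHA and combination libraries.

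When ATRA was added to SAHA, 0 of the 7 counted filament genes passed the mark, where 3.04% of counted genes were higher and 0.929% lower past it. Lmnb2 (0.61) and Krt18 (-0.60) differed the most as deposited, but after rescaling Lmnb2 was at 0.0025 and Krt18 at -1.31, past the mark, with Lmna at -0.96. When SAHA was added to ATRA, Ina (1.45) and Lmnb2 (1.16) were higher past the mark and Krt18 (-1.34) was lower, where 10.5% of counted genes were higher and 11.9% lower. After rescaling Lmnb2 stood just under the mark (0.998) and Lmna just past it (-1.01), and with a pseudocount of 0.1 FPKM Krt19 was also lower (-2.36). The comparisons with vehicle share 1 vehicle library, and the 2 comparisons here share the combination library, so they are not independent.

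**Figure D4:**
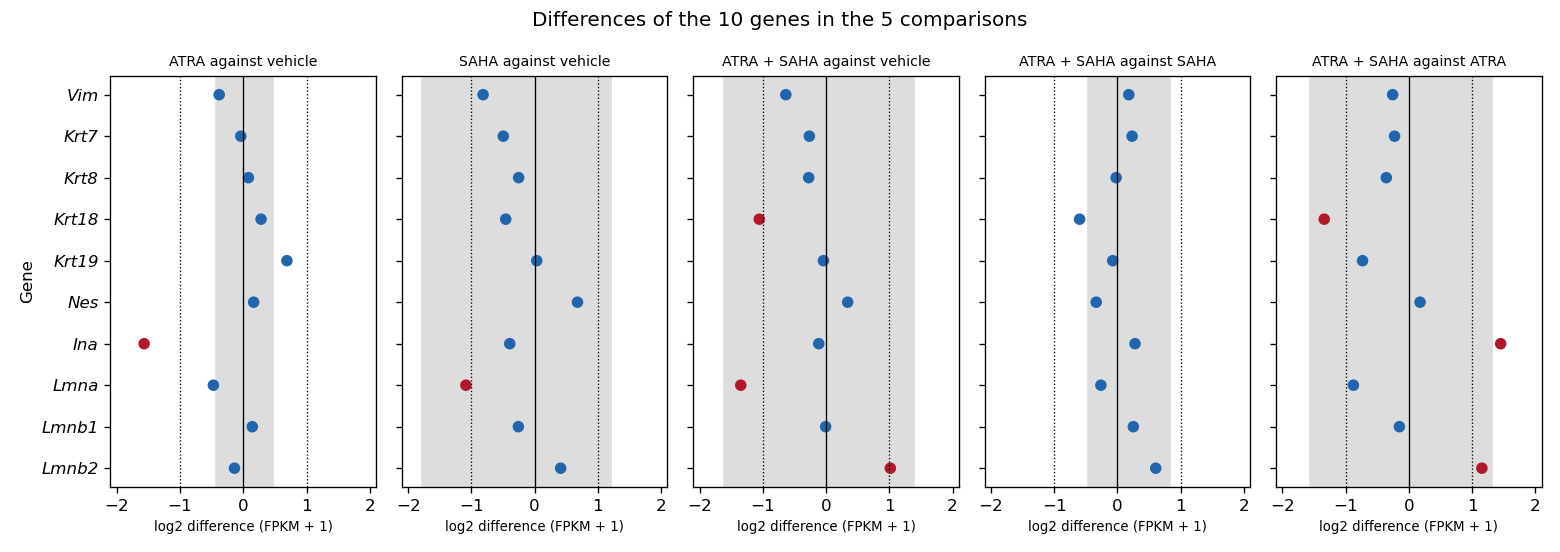
Differences in log2(FPKM + 1) of the 10 genes in the 5 comparisons, with the range from the 5th to the 95th percentile of 8616 counted genes in grey, dotted lines at the 2-fold mark and genes past it in red. Ina lies far outside the grey range with ATRA (-1.57), and Krt18 lies outside it when ATRA was added to SAHA (-0.60).

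Proteins that anchor or modify the filaments were read from lists chosen for this purpose. Among lamin partners and the complex that links the nucleus to the cytoskeleton, 15 of 17 genes were counted. Tor1aip2, whose product regulates torsin ATPases, was the highest, at 14.2, 27.5, 19.7 and 20.6 FPKM with ATRA, SAHA, both and vehicle. With SAHA 0 were higher and 2 lower past the mark, with a median of -0.50 against -0.12 over all counted genes, of which 7.88% were higher and 16.0% lower. With both compounds 1 was higher and 2 lower, with a median of -0.26 against 0.04, where 11.1% of all were higher and 12.6% lower. The counts were thus near the background. Tmpo, which encodes the lamin-binding LAP2 proteins, was at 19.7 FPKM with ATRA, 4.32 with SAHA and 4.73 with both, against 18.0 with vehicle. Tor1aip1, which encodes the lamin-binding protein LAP1, was the other lower gene, at 0.705 FPKM with SAHA and 0.625 with both against 4.52 with vehicle; its row shares a locus with Tor1aip2. Sun1, an inner nuclear membrane protein that binds A-type lamins, was at 7.31, 15.4 and 19.4 FPKM with ATRA, SAHA and both, against 8.18 with vehicle. Sun2, its paralog, was at 4.65, 3.22 and 2.20 FPKM against 4.98. Sun1 and Sun2 thus moved apart in the libraries with SAHA, by 1.16 and -0.90 with both compounds as deposited. Rescaling multiplies the combination by 0.777, after which Sun1 fell short of the mark there and Sun2 passed it downward.

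The enzymes that farnesylate, trim and methylate the lamin tail formed a list of their own. As deposited, 2 of 6 counted genes were higher and 0 lower past the mark with SAHA and again with both. The medians were 0.56 and 0.37. Over all counted genes, 7.88% and 11.1% were higher and the medians were -0.12 and 0.04. Icmt, the carboxyl methyltransferase of prenylated proteins, was at 2.66 FPKM with ATRA, 7.68 with SAHA and 9.19 with both, against 2.44 with vehicle. Fnta, the alpha subunit of the protein farnesylating enzyme, was at 4.25, 9.32 and 10.7 FPKM against 3.81. Rescaling multiplies the combination by 0.777, after which Fnta with both compounds fell short of the mark. Zmpste24, the protease that matures prelamin A, was at 3.87, 3.64 and 2.74 FPKM against 3.83, and passed no mark. These enzymes also act on many other prenylated proteins.

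**Figure D5:**
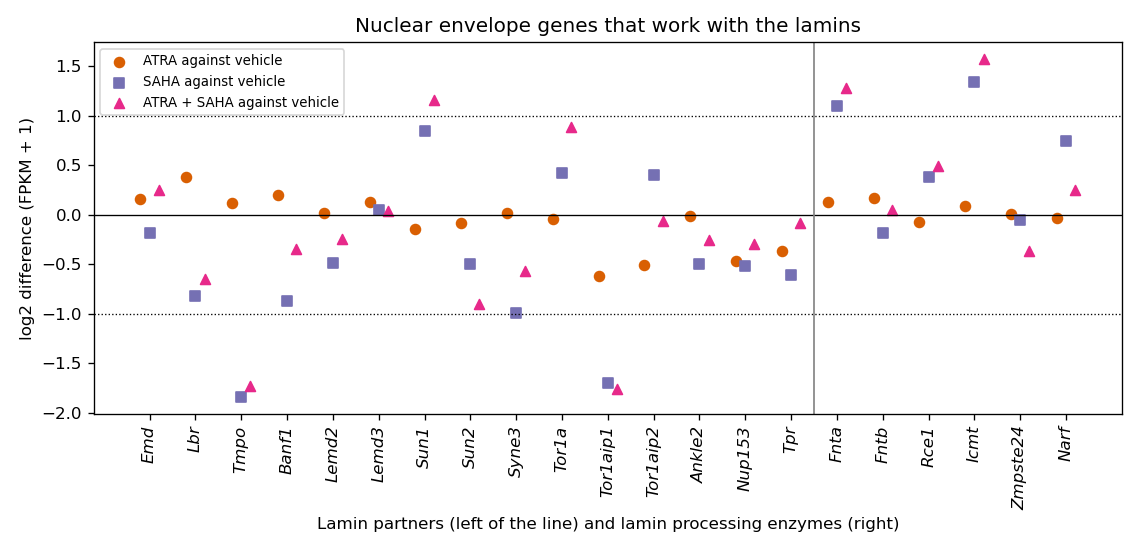
Differences from vehicle in log2(FPKM + 1) of the 15 counted lamin partners and 6 lamin processing enzymes for ATRA, SAHA and ATRA plus SAHA, with dotted lines at the 2-fold mark. As deposited, Tmpo and Tor1aip1 lie below the mark and Fnta and Icmt above it in both libraries with SAHA. The ATRA points stay between -0.62 and 0.38.

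Linkers of the cytoplasmic filaments were more abundant than most desmosome genes. Plectin (Plec), which ties vimentin and keratin to actin and adhesion sites, was at 24.8 FPKM with ATRA, 35.8 with SAHA and 23.4 with both, against 43.3 with vehicle. Epiplakin (Eppk1), a keratin-binding plakin, had the same order, at 5.25, 7.94 and 4.69 FPKM against 9.14. Both were low in the 2 libraries with ATRA. As deposited, differences of -0.78 and -0.70 for ATRA and -0.86 and -0.83 for the combination were short of the mark. Rescaling multiplies the combination by 0.777, after which Plec and Eppk1 were both lower past the mark in it. Dst (dystonin) was at 6.05, 2.34 and 2.96 FPKM against 6.89. It passed the mark with SAHA as deposited (-1.24), but not after rescaling, which multiplies SAHA by 1.28. Pkp2, a desmosomal plaque protein, was at 0.395, 2.39 and 3.03 FPKM against 0.575, and passed it upward with SAHA (1.11) and both (1.36). Desmoplakin (Dsp), which anchors keratin at desmosomes, was at 0.0986, 0.357 and 0.271 FPKM against 0.151. As deposited, 1 of 8 counted linker and desmosome genes (of 16 listed) was higher and 1 lower with SAHA. With both compounds 1 was higher and 0 lower. These counts were near the background of 7.88% higher and 16.0% lower with SAHA and of 11.1% and 12.6% with both.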

How the data were processed

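RNA from 4 cultures, 1 per treatment, was sequenced. The submitters' processing notes name Trimmomatic 0.32, Cuffdiff and mm10. Not stated in the sources used here are aligner, annotation, strand setting, handling of reads with several matches, and how libraries were scaled. The authors deposited 1 FPKM value per gene and library, with no read counts, per the file headers, so no counting interval is given. The column of the ATRA library is headed RA and was matched to the sample with retinoic acid alone.

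Values were taken as log2(FPKM + 1) in Python 3.11.15 with pandas 2.3.3. Genes averaging 1 FPKM or more were counted, and a difference of 1 or more in size was called. Single libraries allowed no test. The design assumed FPKM, and no test was changed. Depth was estimated from the lowest peak in the distribution of FPKM times transcript length, over low genes with 1 transcript of 1000 to 4000 bases, taken as 1 fragment. Exact shared sequence was searched in the transcripts of GENCODE release M21, on either strand, and transcript lengths are those of the longest protein-coding transcript. Upstream sequences are RefSeq's. Coordinates are those of the table, on mm10. The rule of size was tested on simulated data.

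The filament genes and 15 lists of other genes were chosen with earlier results of these data known. All 10 filament genes are named whatever their values. From the other lists, the highest gene and up to 4 genes per direction past the mark in SAHA or the combination against vehicle, reaching 5 FPKM in the higher of both libraries, were to be named. Pkp2, Tor1aip1, Sun2, Zmpste24, Eppk1, Dsp, Nefm, Gfap, Prph, Krt79, Krt10, Krt20, Sox9, Epcam, Cftr, Aurkb, Ppp2ca, Tagln, Col1a1, Cdh1, Cldn3, Cldn4, Tjp3, Nt5c2, Eif1, Gast, Hap1, Jup, Krt13 and its neighbours were named outside that rule after their values were seen. Alternatives were a pseudocount of 0.1 FPKM, centring on the median difference, rescaling without small RNAs and Gm20594, no filter, and a minimum mean of 5 FPKM.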

Additional observations from a re-analysis of the deposited data

How the results depend on the processing

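Of 150 log2 differences of the 10 genes under the alternatives, 139 kept their side of the 2-fold mark, 5 fell short of it, 6 reached it and 0 of those past the mark changed sign. The number of filament genes past the mark was 2 instead of 1 for ATRA and 2 instead of 1 for SAHA with a pseudocount of 0.1 FPKM (Krt19 and Nes were added). It was 0 for SAHA after centring and after rescaling, and 1 (Krt18) instead of 0 for the combination against SAHA after rescaling. Departures from additivity of 1 or more among the 10 genes numbered 3 with the smaller pseudocount and 2 after centring or rescaling, instead of 1. No share over all counted genes was computed for these departures. The smaller pseudocount and the absence of a filter weigh low genes more by construction. The log2 change of the ratio of Lmna to B-type lamins with SAHA, -1.23, was -0.77 against Lmnb1 alone. Below the mark, the sign turned between settings for Krt8 and Lmnb1 with ATRA, for Lmnb1 with SAHA, and for Vim, Krt7, Ina and Lmnb1 in the combination against SAHA.

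Among the other filament and partner genes, the numbers past the mark were 0 for ATRA, 12 for SAHA, 7 for both, 3 for the combination against SAHA and 8 for it against ATRA. With the smaller pseudocount they were 1 for ATRA, 12 for both, 5 against SAHA and 13 against ATRA. With no filter ATRA had 1. With a minimum mean of 5 FPKM they were 4 for SAHA, 4 for both, 1 against SAHA and 5 against ATRA. At the minimum mean of 1 FPKM, the lists held 15 lamin partners, 12 kinases and phosphatases, 8 linker and desmosome genes and 6 lamin processing enzymes. They also held 4 other type III to VI filaments, 2 type II keratins and 0 type I keratins. Over all counted genes, 182 passed for ATRA, 2060 for SAHA, 2043 for both, 342 against SAHA and 1930 against ATRA. As shares of the 8616, 0.917% were higher and 1.20% lower for ATRA, 7.88% and 16.0% for SAHA and 11.1% and 12.6% for both. For the combination they were 3.04% and 0.929% against SAHA, and 10.5% and 11.9% against ATRA. The smaller pseudocount gave 675 against SAHA and 2933 against ATRA, and rescaling 581 against SAHA. The minimum of 5 FPKM, which tests fewer genes, gave 66, 933, 911, 205 and 854. No paired analysis was possible because each treatment had 1 library.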

Other observations

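Among kinases and phosphatases that act on filaments, 3 mitotic kinases of 12 counted genes passed the 2-fold mark as deposited. They were higher in the combination than with SAHA alone. After rescaling, which multiplies SAHA by 1.28 and the combination by 0.777, all 3 fell short of the mark. Cdk1, which phosphorylates lamins and vimentin when the nuclear envelope breaks down in mitosis, was at 7.20 FPKM with ATRA, 1.56 with SAHA and 4.30 with both, against 6.46 with vehicle. Aurkb, a mitotic kinase that phosphorylates vimentin, was at 5.38, 1.01 and 3.82 FPKM against 4.35, and Aurka at 6.55, 2.18 and 7.67 FPKM against 5.47. Against vehicle, 1 of the 12 was higher and 4 lower past the mark with SAHA, where 7.88% of all counted genes were higher and 16.0% lower, and 0 passed it with both compounds. In the combination against SAHA, 3.04% of all counted genes were higher and 0.929% lower. Ppp2ca, a phosphatase catalytic subunit, was at 25.5 FPKM with both and 23.2 with SAHA. Ppp1ca, another, was the highest of the list at 44.5, 47.3 and 43.0 FPKM against 42.8. Lmna, whose products are among the lamins that Cdk1 phosphorylates, was lower in the combination than with SAHA alone, at 23.9 and 28.9 FPKM. These are RNA levels, and phosphorylation was not measured.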
